A study of Homo sapiens with 10 samples.

Results

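The 38 genes described here belong to homologous recombination and to the Fanconi anaemia pathway, and were taken by their gene names from the deposited table of transcript abundance, which holds 64940 genes after copies were removed. All 38 were listed, and all 38 were among the 16687 genes tested, those whose TPM averaged 1 or more across the 4 libraries. TPM, the deposited unit, is abundance per length of transcript, scaled so that every library sums to 1000000.

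Homologous recombination mends a broken chromosome by copying the sister chromatid, and it therefore works mainly while DNA is being replicated and after. Damage kinases signal the break, nucleases trim its ends, BRCA2 and its partners load the strand-exchange recombinase, and helicases undo the joined molecules afterwards. The Fanconi pathway clears crosslinks between the strands of DNA: a core complex attaches ubiquitin to FANCD2 and FANCI at a stalled fork, and nucleases and recombination proteins then finish the repair. Primordial germ cells are sensitive to the loss of Fanconi genes, which reduces their number in mice.

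The study asked how DAZL, an RNA-binding protein of germ cells, acts in primordial germ cell-like cells (PGCLCs), and for RNA sequencing it compared 2 control libraries with 2 libraries of cells that overexpress DAZL (oeDAZL). All 4 libraries were made from cells derived from H9, a human embryonic stem cell line, so each group has the background of a single line. The labels give the control cells as wild type and differentiated spontaneously and the oeDAZL cells as PGCLCs, whereas the design text calls the control cells wild-type PGCLCs. According to the methods, such cells were differentiated with BMP4 and BMP8a, transduced with a lentivirus carrying DAZL joined to GFP or GFP alone, and sorted. It is not settled here whether the control cells got BMPs and the GFP virus, so the effect of DAZL and that of a different treatment cannot be told apart. Nothing states that the libraries of a group came from separate cultures, and the p-values therefore measure only the spread between these libraries.

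DAZL itself was at 0 and 0.0333 TPM in control against 102 and 101 TPM in oeDAZL, as the labels require. The 10 PGC marker genes summed to 104 and 113 TPM in control and 117 and 116 TPM in oeDAZL, and of the 7 tested, 6 had a lower and 1 a higher fitted mean, with a median log2 fold change of -0.12. The higher one was PDPN, at 32.9 and 49.7 TPM against 58.5 and 52.5 TPM (limma unadjusted p = 0.0499). Of the genes that specify PGCs, TFAP2C was at 53.9 and 49.1 TPM against 44.3 and 50.4 TPM. NANOS3 lay between 0.732 and 1.66 TPM, SOX17 between 2.52 and 3.35 TPM and PRDM1 between 1.47 and 2.32 TPM, and DDX4 was listed at 0 in all 4 libraries. Genes of mesoderm summed to between 3450 and 3660 TPM and those of amnion and trophoblast to between 4040 and 4410 TPM. Neural genes summed to 448 and 585 TPM against 693 and 639 TPM, endoderm genes to 237 and 151 TPM against 155 and 185 TPM, and pluripotency genes to 745 and 690 TPM against 714 and 687 TPM, with NANOG under 1 TPM throughout. At an unadjusted p of at most 0.05 in limma, 3 of 8 tested mesoderm genes were lower and 1 higher, 2 of 8 of amnion and trophoblast were lower and 2 higher, 3 of 5 neural genes were lower and 1 higher, 1 of 6 endoderm genes was lower, and 3 of 7 pluripotency genes were higher. Of all tested genes, 15.2% were lower and 5.02% higher at that p. The sums thus cover opposed differences. COL3A1, a mesoderm gene, was at 583 and 479 TPM against 224 and 220 TPM (log2 fold change -1.25, limma adjusted p = 0.0344). TBXT (-0.97) and COL1A1 (-0.55) were lower as well and HAND1 (0.32) higher. CDX2 (-0.69) and ISL1 (-0.49) were lower, GATA2 (0.27) and IGFBP3 (0.22) higher. Among neural genes, NES (0.52) was higher and PAX6 (-1.3), ZIC1 (-0.93) and OTX2 (-0.87) lower. These are bulk samples, in which fewer cells of a type and less RNA per cell cannot be told apart. The part of other cell types in the differences below was not tested.

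The repair genes were expressed at moderate levels in every library. Their mean TPM ran from 5.96 for FANCM to 76.2 for FANCI, a 12.8-fold range with a median of 18.8. Of the 38 genes, 25 lay between 10 and 30 TPM, 8 lay above and 5 below. The upper 8 were FANCI, FANCG, CHEK1, RAD51AP1, RECQL4, FANCD2, FANCA and FANCL, and the lower 5 were BRCA2, SLX4, RAD51B, FANCB and FANCM. Library values of neighbours in this order interleaved from FANCG to FANCL in the upper group and from BRCA2 to FANCB in the lower group. The order within these stretches is therefore not firm. Summed over all 38 genes, the level was 920 and 875 TPM in control against 821 and 804 TPM in oeDAZL.

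**Figure D1:**
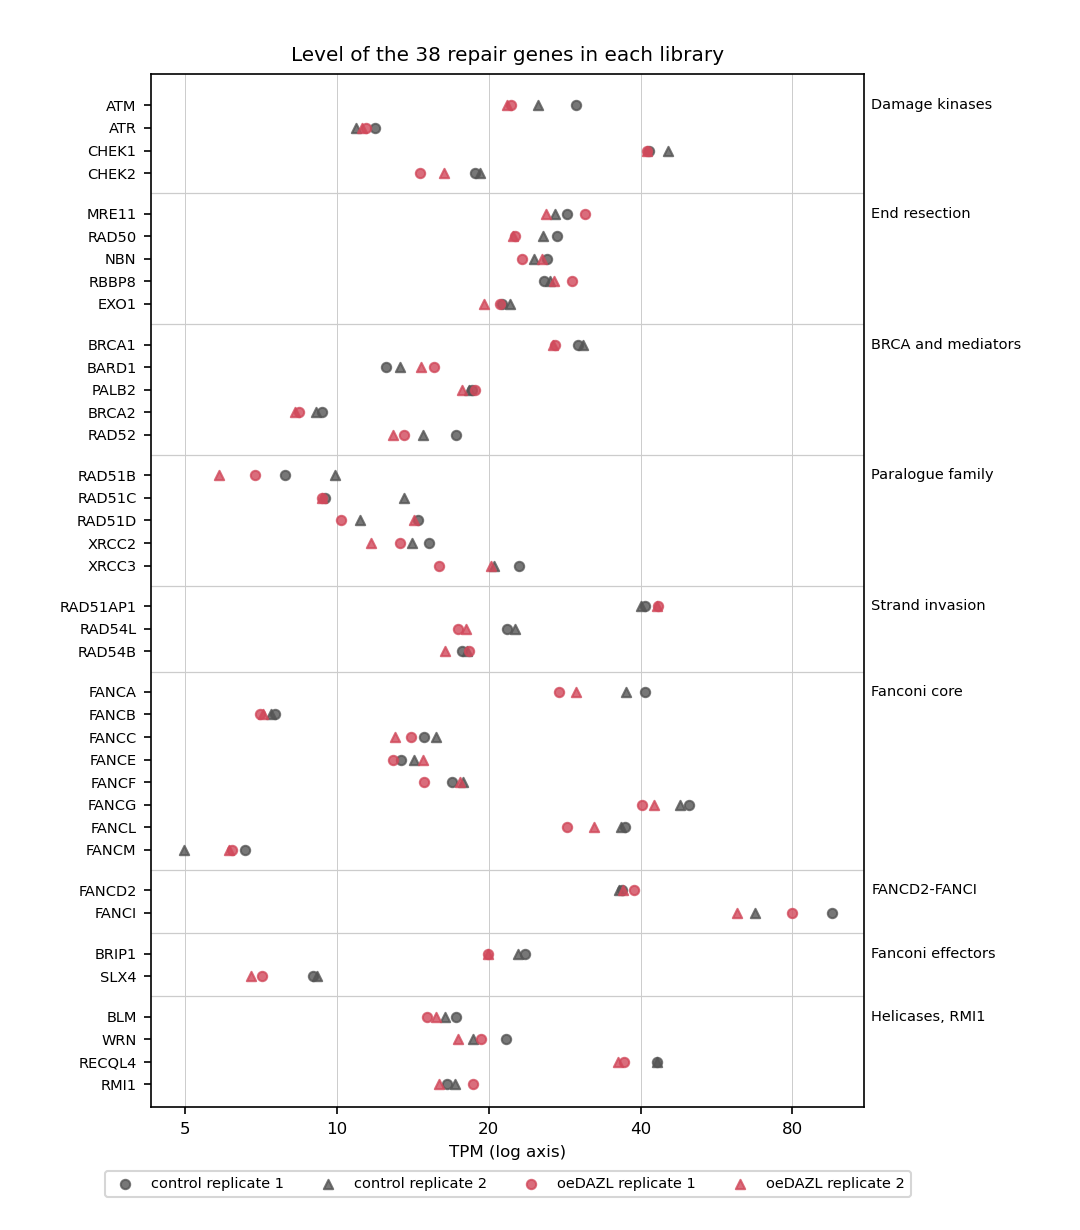
TPM of the 38 repair genes (log axis) in each of the 4 libraries, with circles and triangles for replicates 1 and 2 and colour for the group. FANCI stands highest at between 62.1 and 95.7 TPM, with its replicates as far apart as its groups, and most other genes lie between 10 and 30 TPM, many with the oeDAZL points to the left.

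The main finding is of small differences. The fit used here was limma, a linear model fitted to log2(TPM + 1) of all tested genes. At the study's thresholds of a 2-fold change and an unadjusted p of at most 0.05, none of the 38 genes passed in either direction. Of all tested genes, 0.126% were higher and 0.563% lower at these thresholds. The study applied them with DESeq2 to read counts, so its own calls for these genes were not reproduced here. No repair gene had a Benjamini-Hochberg adjusted p under 0.05, against 0.0599% of all tested genes, and the lowest adjusted p was 0.0962, for FANCA. At shares this small, a list of 38 genes without a call is not set apart from the table as a whole. The 95% interval of every one of the 38 differences lay inside the 2-fold limits, with bounds from -0.81 (RAD51B) to 0.49 (FANCM) on the log2 scale. A difference of 2-fold or more in any of these genes lies outside these intervals, which rest on 2 libraries a group.

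Within these limits the genes leaned to lower values in oeDAZL. Of the 38, 31 had a lower and 7 a higher mean of log2(TPM + 1), with a median log2 fold change of -0.13 and a range from -0.43 to 0.22. Of all tested genes 65.3% were lower, with a median of -0.08, and among the 9279 tested genes within the same range of TPM 65.5% were lower, with a median of -0.07. At an unadjusted p of at most 0.05, 11 repair genes (28.9%) were lower and 0 higher, against 15.2% and 5.02% of all tested genes. Among genes of the same range of TPM, 17.9% were lower and 4.99% higher at that p. Both oeDAZL libraries lay below both control libraries for 22 of the 38 genes (57.9%), against 38.4% of all tested genes, and above them for 4 (10.5%), against 16.0%. In the deposited values the lower genes are thus a larger share than in the table as a whole, in a list that was chosen with earlier results known and was given no test of its own.

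The larger share at an unadjusted p of at most 0.05 depends on how the libraries are scaled. After median-of-ratios scaling, which divides each library by the typical ratio of its genes, the share of all tested genes that were lower was 50.5%, 2 repair genes were lower at p of at most 0.05 (FANCA and RAD54L) and 2 were higher (BARD1 and RAD51AP1). Each is a share of 5.26%, below the 9.16% of all tested genes that were lower and the 9.95% that were higher. Quantile normalization, which gives every library the same distribution, left 4 lower (FANCA, RAD54L, FANCG and RECQL4) and 1 higher (BARD1), shares of 10.5% and 2.63% against 9.07% and 8.40% of all tested genes, with 48.7% of all genes lower in sign. The medians of the repair genes after the 2 scalings were -0.05 and -0.03, beside medians of 0 and 0.01 over all tested genes. The first scaling divides all genes of a library by a single factor and moves them nearly alike. It could therefore hardly change the distance between the repair genes and the rest, and no conclusion is drawn from that distance. The size factors behind the first scaling were 1.047 and 1.016 in control and 0.9697 and 0.9768 in oeDAZL.

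Single libraries mattered as well. Against the 11 lower genes of the full fit, those without control replicate 1, control replicate 2, oeDAZL replicate 1 and oeDAZL replicate 2 gave 6, 10, 2 and 5 genes lower at an unadjusted p of at most 0.05, some of them genes outside the 11. These shares of 15.8%, 26.3%, 5.26% and 13.2% stand against 10.3%, 19.7%, 7.35% and 9.64% of all tested genes, so that without oeDAZL replicate 1 the repair genes were under the background. With oeDAZL replicate 1 left out, the 2 genes were FANCA and RAD51B. FANCA alone passed in each of these 4 fits and in all 10 other ways of processing, with log2 fold changes between -0.49 and -0.35 over all of them.

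**Figure D2:**
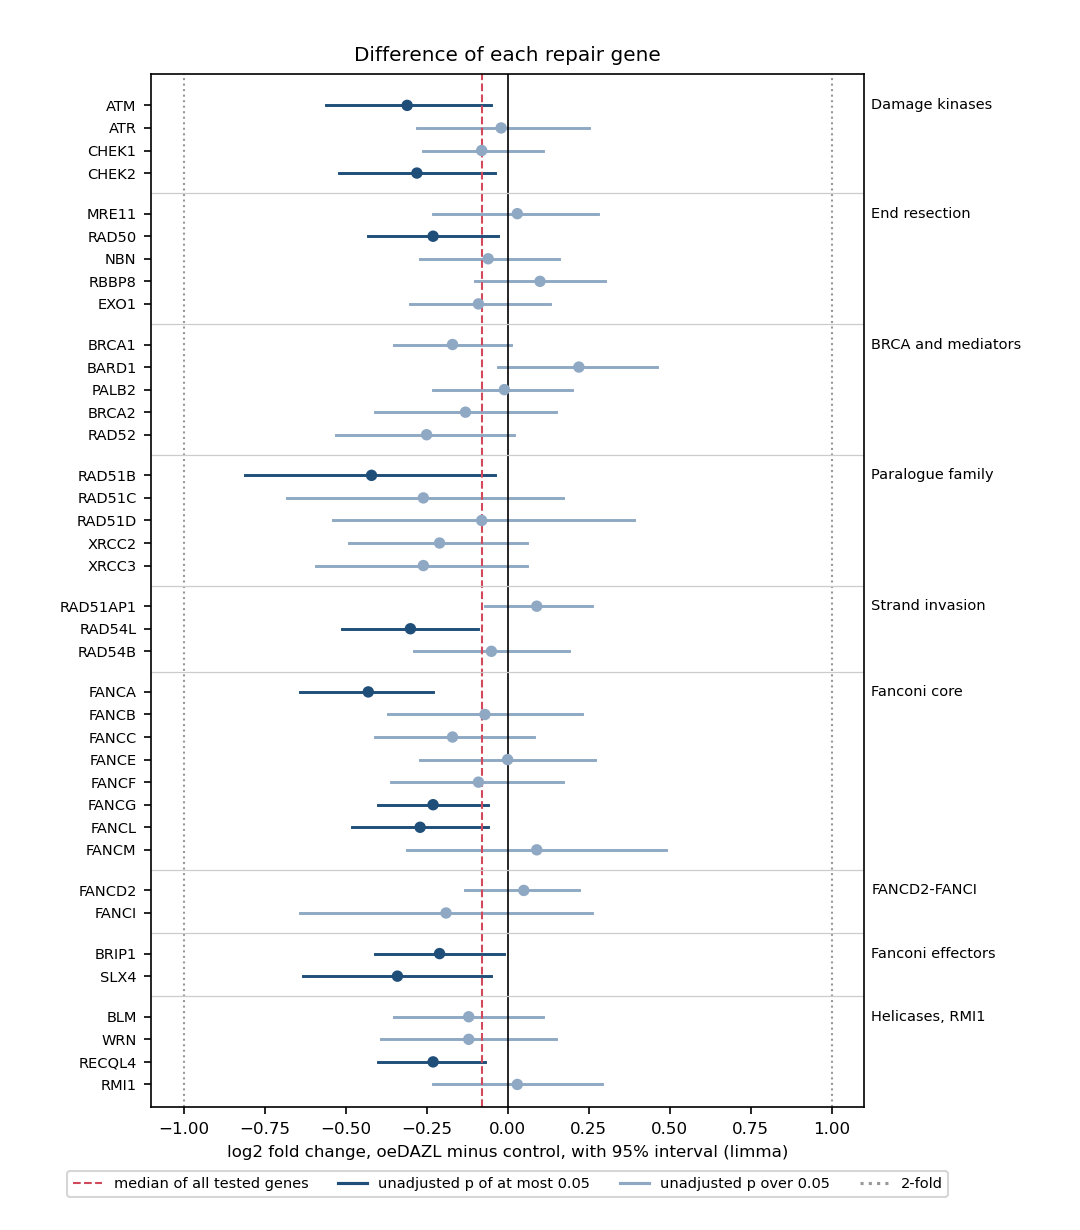
Log2 fold change (oeDAZL minus control) of each repair gene with its 95% interval from limma, dark where the unadjusted p was at most 0.05. The dashed line marks the median of all tested genes (-0.08), and every interval lies between the dotted lines of a 2-fold change.

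The core complex of the Fanconi pathway, the ubiquitin ligase that marks FANCD2 and FANCI, held 3 of the 11 lower genes, among them FANCA, which had the lowest p of the 38. FANCA, which forms a subcomplex with FANCG, lies on the minus strand of chromosome 16 from 89726683 to 89816977 (hg38). It was at 40.8 and 37.4 TPM in control and at 27.6 and 29.8 TPM in oeDAZL. Both oeDAZL libraries lay below both controls, by 26.6% in the mean (28.5% for RAD51B), with a log2 fold change of -0.43 (SE 0.08, limma unadjusted p = 0.00198, adjusted p = 0.0962). FANCG, the partner of FANCA, was at 49.9 and 47.9 TPM in control and 40.3 and 42.5 TPM in oeDAZL (log2 fold change -0.23, SE 0.07, limma unadjusted p = 0.015, adjusted p = 0.164). FANCL, the subunit with the ligase activity, was at 37.3 and 36.6 TPM against 28.6 and 32.4 TPM (-0.27, SE 0.09, limma unadjusted p = 0.0197, adjusted p = 0.178). All 3 had separate groups. With a library left out, FANCG did not pass that p without oeDAZL replicate 1, and FANCL did not without control replicate 1 or without oeDAZL replicate 1.

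FANCA and FANCG encode subunits of 1 subcomplex, and their ratio within a library does not depend on scaling. It was 0.818 and 0.781 in control and 0.685 and 0.701 in oeDAZL, a difference of -0.21 on the log2 scale without overlap. With 2 libraries against 2, an exact permutation test of a ratio cannot go below p = 0.33, so no ratio here was tested. A ratio restates the values of its genes. Of the 12 ratios of partner genes computed, 7 had separate groups and 5 overlapped. No such share was computed over other pairs of genes.

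The other members of the core complex lay closer to no difference. FANCC, which binds FANCE and FANCF, was at 14.9 and 15.7 TPM in control and 14.0 and 13.0 TPM in oeDAZL. FANCB, a partner of FANCL, was at 7.53 and 7.38 TPM against 7.03 and 7.12 TPM. The groups of both genes were separate, but limma gave unadjusted p-values of 0.147 and 0.608. FANCE (13.4 and 14.2 TPM against 12.9 and 14.8 TPM), FANCF (16.9 and 17.8 TPM against 14.9 and 17.5 TPM) and FANCM, the translocase that anchors the complex on DNA (6.57 and 4.96 TPM against 6.20 and 6.11 TPM), had overlapping groups. Over the 8 genes the median log2 fold change was -0.13, with 7 lower and 1 higher.

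The substrates of the core complex overlapped or lay near their controls. FANCD2 was at 36.8 and 36.3 TPM in control and at 38.8 and 36.9 TPM in oeDAZL, a log2 fold change of 0.05 with a 95% interval from -0.13 to 0.22. FANCI, the most abundant of the 38 genes, was at 95.7 and 67.3 TPM against 79.8 and 62.1 TPM. Its replicates differed by more than its groups, and limma gave -0.19 with an SE of 0.18 (unadjusted p = 0.35). Without control replicate 1 the value for FANCI was 0.06, and without control replicate 2 it was -0.44 with an unadjusted p of 0.0384. The ratio of FANCD2 to FANCI overlapped between the groups.

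Of the genes that act after the substrates are marked, both members were lower. SLX4, the scaffold of structure-specific nucleases, was at 8.94 and 9.13 TPM in control and 7.08 and 6.76 TPM in oeDAZL, with a log2 fold change of -0.34 (SE 0.12, limma unadjusted p = 0.0289, adjusted p = 0.203). Its p passed 0.05 in none of the 4 fits that leave out a library, whose unadjusted p-values were 0.0515, 0.0671, 0.102 and 0.155. BRIP1, a helicase that binds BRCA1, was at 23.6 and 22.8 TPM against 19.9 and 19.9 TPM (-0.21, SE 0.08, limma unadjusted p = 0.0412, adjusted p = 0.229). Its p passed 0.05 only in the fit without control replicate 2 among those 4.

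Among the kinases, 2 passed an unadjusted p of 0.05, ATM and CHEK2, which belong to the double-strand break branch. ATM, the apical kinase of broken ends, was at 29.8 and 25 TPM in control and 22.1 and 21.7 TPM in oeDAZL (log2 fold change -0.31, SE 0.11, limma unadjusted p = 0.0264, adjusted p = 0.196). CHEK2, its effector kinase, was at 18.8 and 19.2 TPM against 14.6 and 16.3 TPM (-0.28, SE 0.10, limma unadjusted p = 0.0285, adjusted p = 0.201). Both had separate groups. Each passed in 1 of the 4 fits that leave out a library, ATM in the one without control replicate 2 and CHEK2 in the one without oeDAZL replicate 2. The value for ATM was -0.18 without control replicate 1.

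ATR, the kinase of single-stranded DNA, was at 11.9 and 10.9 TPM in control and 11.4 and 11.2 TPM in oeDAZL, a log2 fold change of -0.02 with a 95% interval from -0.28 to 0.25. CHEK1, the effector of ATR, was at 41.6 and 45.3 TPM against 41.2 and 41.2 TPM, with an interval from -0.26 to 0.11. The ratio of ATR to ATM was 0.40 and 0.438 in control and 0.518 and 0.514 in oeDAZL, 0.30 higher on the log2 scale. That of CHEK1 to CHEK2 was 2.21 and 2.36 against 2.81 and 2.52, 0.22 higher, or 0.14 without oeDAZL replicate 1. Both ratios had separate groups, in the same direction, which restates the values of these genes given above and adds nothing to them. ATM differed between the control libraries by more than the gap between the lower of them and the oeDAZL libraries.

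Among the genes of end resection, RAD50 stood apart from the partners with which it forms a complex. RAD50, the coiled-coil ATPase of that complex, was at 27.3 and 25.6 TPM in control and 22.5 and 22.3 TPM in oeDAZL (log2 fold change -0.23, SE 0.08, limma unadjusted p = 0.0293, adjusted p = 0.203). It passed only without control replicate 2 among the fits that leave out a library. MRE11, the nuclease of the complex, was at 28.6 and 27.0 TPM against 31.0 and 26.0 TPM, and NBN, which recruits ATM, was at 26.1 and 24.6 TPM against 23.3 and 25.5 TPM. Both overlapped.

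The 3 subunits were close to equal in control and less so in oeDAZL. The ratio of MRE11 to RAD50 was 1.05 in both control libraries and 1.38 and 1.16 in oeDAZL, 0.27 higher on the log2 scale. The ratio of NBN to RAD50 was 0.956 and 0.960 in control and 1.04 and 1.14 in oeDAZL, 0.18 higher. Without oeDAZL replicate 1 the first difference was 0.15, and without oeDAZL replicate 2 the second was 0.11. RBBP8, the cofactor that starts resection, was at 25.7 and 26.5 TPM against 29.2 and 26.9 TPM, above the controls in both oeDAZL libraries but with an unadjusted p of 0.267 in limma. EXO1, the nuclease of long-range resection, was at 21.2 and 22 TPM against 21.0 and 19.6 TPM (unadjusted p = 0.355 in limma).

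BRCA1 and BARD1, which form a single heterodimeric ubiquitin ligase, lay on opposite sides of their controls. BRCA1 was at 30.1 and 30.7 TPM in control and 27.1 and 26.8 TPM in oeDAZL, a log2 fold change of -0.17 (SE 0.07, limma unadjusted p = 0.0647, adjusted p = 0.276). BARD1 was at 12.5 and 13.3 TPM against 15.6 and 14.7 TPM, a log2 fold change of 0.22 (SE 0.10, limma unadjusted p = 0.0723, adjusted p = 0.289). BARD1 had the highest fold change of the 38 genes. It passed an unadjusted p of 0.05 after median-of-ratios scaling (0.30) and quantile normalization (0.32), but in no other of the 10 alternatives. Its value was 0.17 after GC and length correction and between 0.18 and 0.26 with a library left out.

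The ratio of BRCA1 to BARD1 showed the largest difference of the 12 ratios of partner genes that were computed. It was 2.40 and 2.32 in control and 1.73 and 1.82 in oeDAZL. The mean log2 ratio was 1.24 ± 0.04 (SD, n = 2) in control and 0.83 ± 0.05 (SD, n = 2) in oeDAZL, a difference of -0.41. Leaving out any 1 library gave values from -0.44 to -0.37. The transcripts have a GC content of 41.8% and 37.9%.

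PALB2, which joins BRCA1 to BRCA2, was at 18.5 and 18.3 TPM in control and 18.8 and 17.7 TPM in oeDAZL, with a 95% interval of the log2 fold change from -0.23 to 0.20. BRCA2, which loads the recombinase, was at 9.35 and 9.10 TPM against 8.42 and 8.24 TPM (-0.13, SE 0.12, unadjusted p = 0.295 in limma). The ratio of BRCA2 to PALB2 was 0.505 and 0.496 in control and 0.449 and 0.465 in oeDAZL. RAD52, an annealing protein, was at 17.2 and 14.8 TPM against 13.6 and 12.9 TPM (-0.25, SE 0.11, unadjusted p = 0.0646 in limma). Without control replicate 1 the value for RAD52 was -0.15, and without control replicate 2 it was -0.36 with an unadjusted p of 0.0234.

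**Figure D3:**
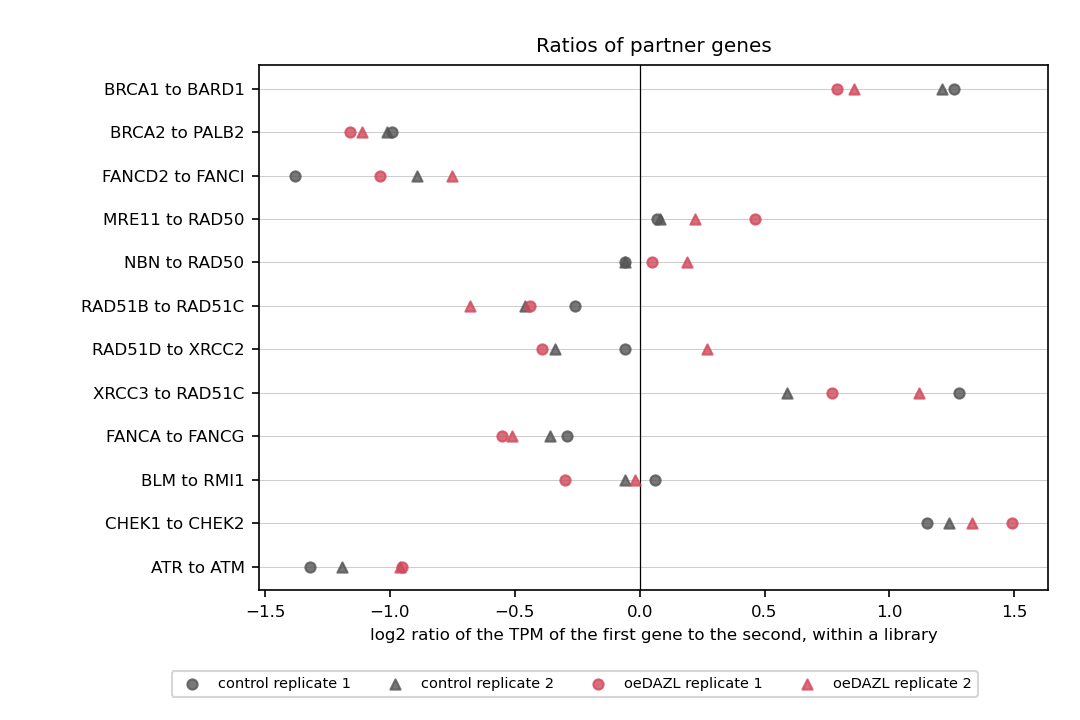
Log2 ratio of the TPM of 12 pairs of partner genes within each library, with circles and triangles for replicates 1 and 2 and colour for the group. The ratio of BRCA1 to BARD1 lies at 1.26 and 1.21 in control and at 0.79 and 0.86 in oeDAZL, while pairs such as FANCD2 to FANCI and XRCC3 to RAD51C overlap.

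All 5 paralogues of the recombinase had a lower mean in oeDAZL, with a median log2 fold change of -0.26 and SEs from 0.11 for XRCC2 to 0.19 for RAD51D. RAD51B was at 7.89 and 9.91 TPM in control and 6.88 and 5.84 TPM in oeDAZL (-0.42, SE 0.16, limma unadjusted p = 0.0366, adjusted p = 0.219). It passed without control replicate 1 and without oeDAZL replicate 1, but not without either of the other two. RAD51C, which takes part in both complexes of the family, was at 9.46 and 13.6 TPM against 9.33 and 9.33 TPM, so its difference lay in control replicate 2. Without that library the value for RAD51C was -0.02, and without control replicate 1 it was -0.50 with an unadjusted p of 0.00947.

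RAD51D was at 14.5 and 11.1 TPM in control and 10.2 and 14.2 TPM in oeDAZL and overlapped. XRCC2, the partner of RAD51D, was at 15.2 and 14.1 TPM against 13.3 and 11.7 TPM (unadjusted p = 0.105 in limma). XRCC3, the partner of RAD51C, was at 23.0 and 20.5 TPM against 15.9 and 20.2 TPM (unadjusted p = 0.0976 in limma), with a value of -0.43 and an unadjusted p of 0.0257 without oeDAZL replicate 2. The 3 ratios within the family overlapped between the groups.

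Of the genes of strand invasion, RAD54L, a translocase that remodels the joined strands, was at 21.7 and 22.5 TPM in control and 17.4 and 18.0 TPM in oeDAZL. Its groups were separate, with a log2 fold change of -0.30 (SE 0.09, limma unadjusted p = 0.0121, adjusted p = 0.155). The p stayed at or under 0.05 in all 10 other ways of processing, but was 0.0893 without oeDAZL replicate 1 and 0.0537 without oeDAZL replicate 2. RAD54B, its relative, was at 17.7 and 18.1 TPM against 18.3 and 16.4 TPM and overlapped. RAD51AP1, which stimulates strand exchange, was at 40.8 and 40.1 TPM against 43.3 and 43.2 TPM (0.09, SE 0.07, unadjusted p = 0.208 in limma).

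Of the helicases, RECQL4, which also acts in the start of replication, was at 43.2 and 43.2 TPM in control and 37.1 and 36.1 TPM in oeDAZL (-0.23, SE 0.07, limma unadjusted p = 0.0131, adjusted p = 0.158). Its p was 0.0626 without oeDAZL replicate 1 and 0.10 without oeDAZL replicate 2. BLM, the helicase that dissolves double junctions, was at 17.2 and 16.4 TPM against 15.1 and 15.7 TPM (-0.12, unadjusted p = 0.257 in limma). WRN (21.6 and 18.6 TPM against 19.3 and 17.4 TPM) and RMI1, a cofactor of BLM (16.5 and 17.1 TPM against 18.6 and 15.9 TPM), overlapped, as did the ratio of BLM to RMI1.

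Other genes of the same pathway, 41 that are not among the 38, had a median log2 fold change of -0.10, with 30 lower and 11 higher. Of all tested genes 65.3% were lower, with a median of -0.08. At an unadjusted p of at most 0.05 in limma, 6 of the 41 were lower and 4 higher, beside 15.2% and 5.02% of all tested genes. Of the 41, 0 had an adjusted p under 0.05. RNF8, the ligase that marks chromatin at breaks, was at 11.6 and 14.6 TPM in control and 19.3 and 20.9 TPM in oeDAZL, a log2 fold change of 0.59 that exceeded in size that of each of the 38 genes. CENPX, which binds FANCM, was at 68.7 and 67.7 TPM against 84.0 and 78.7 TPM (0.25). RMI2, which binds RMI1, was at 72.3 and 73.0 TPM against 54.5 and 63.4 TPM (-0.30). ERCC1, a subunit of a nuclease that cuts at crosslinks, was at 63.3 and 56.0 TPM against 49.5 and 48.9 TPM (-0.27). These 4 genes had unadjusted p-values of 0.00372, 0.00732, 0.0118 and 0.0141 in limma, in that order.

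Lists of other repair pathways and of the cell cycle were set beside these. The share of all tested genes to set beside each was 15.2% lower and 5.02% higher at an unadjusted p of at most 0.05 in limma. For end joining, the other way of mending a double-strand break, 8 of 10 genes were lower, with a median of -0.09, and 3 were lower at an unadjusted p of at most 0.05 in limma, the polymerases POLM (-0.34) and POLL (-0.31) and the scaffold PAXX (-0.31). For mismatch repair, 3 of 6 genes were lower and 3 higher.

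Many repair genes are transcribed as cells enter S phase, so the genes of DNA replication are a reference for cycling. The 23 S-phase genes summed to 1860 and 1890 TPM in control and 1940 and 1950 TPM in oeDAZL, with a median log2 fold change of -0.03, 13 lower and 10 higher. At an unadjusted p of at most 0.05 in limma, TYMS (0.33) was higher and CDC45 (-0.25) and GINS2 (-0.20) were lower. The 23 genes of G2 and mitosis summed to 1860 and 1950 TPM against 2010 and 1960 TPM, with a median of 0.05, 17 higher and 6 lower, and BIRC5 (0.27) and TOP2A (0.14) higher at that p. After median-of-ratios scaling the medians of the 2 lists were 0.06 and 0.14, beside -0.05 for the 38 repair genes.

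The repair genes differed among themselves with the base composition of their transcripts. The GC content of the annotated canonical transcript had a median of 41.7% over the 38 genes, between 34.9% (RMI1) and 65.3% (RECQL4), below the 48.6% of the tested protein-coding genes. Across the 38 genes the log2 fold change correlated with GC content with a Spearman rho of -0.52 and a Pearson r of -0.47, given as a description since all values come from the same 4 libraries. Across the 16609 tested genes with a value these were -0.19 and -0.15.

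The 8 repair genes of at least 50% GC (FANCA, FANCC, FANCE, FANCG, RAD54L, RECQL4, SLX4 and XRCC3) had a median of -0.25, with all 8 at or below 0 and 5 at an unadjusted p of at most 0.05. The 30 others had a median of -0.09, with 23 lower and 6 at that p. Over all tested genes the medians of these ranges of GC were -0.12 and -0.04. Over tested genes of any GC content, 15.2% were lower and 5.02% higher at that p in limma. This share was not computed within the ranges of GC, so the counts of 5 and 6 have no matched background. After a correction of each library for GC content and length the medians of the repair genes were -0.19 and -0.13, and 9 of the 38 (23.7%) were lower at p of at most 0.05, against 13.6% of all tested genes. FANCA had a corrected value of -0.38, RECQL4 of -0.14 with an unadjusted p of 0.0804, and SLX4 of -0.26 with an unadjusted p of 0.0726. After that correction the Spearman rho with GC content was -0.33 across the 38 genes and -0.01 across all tested genes. How GC content enters the difference was not tested further.

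Some of the genes share their bases with a neighbour. An exon of another gene overlapped the exons of 28 of the 38 genes in the annotation, over more than 10% of the bases for 6 of them. These were RAD50 (76.9%), XRCC3 (76.7%), RAD54B (66.0%), RAD54L (19.9%), FANCA (19.6%) and CHEK1 (13.4%). The sources used here do not state whether reads were counted by strand, so reads from the shared bases cannot be told apart. XRCC3 lies opposite KLC1, a kinesin light chain at 153 and 158 TPM in control and 144 and 141 TPM in oeDAZL. RAD54L lies opposite LRRC41, at 81.5 and 74.8 TPM against 71.8 and 73.5 TPM. RAD54B shares exons with FSBP on the same strand, at 5.88 and 5.47 TPM against 6.27 and 5.08 TPM. The values of XRCC3, RAD54L and RAD54B are uncertain to that extent. FANCA lies opposite ZNF276, which was at 13.1 and 12.2 TPM against 10.2 and 8.30 TPM (-0.42, unadjusted p = 0.0199 in limma), close to the difference of FANCA itself. RAD50 shares exons with an unnamed gene on the same strand, listed at no more than 0.313 TPM.

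A start site that faces away from that of a neighbour within 1000 bases was found for 18 of the 38 genes (47.4%), against 25% of the 13148 tested protein-coding genes. The neighbour was protein-coding for 12 and a long non-coding RNA for 6. ATM shares its start region with NPAT, a gene of histone transcription, which was at 12 and 12.4 TPM in control and 12.8 and 11 TPM in oeDAZL, overlapping where ATM did not. NBR2, opposite BRCA1, was at 15.1 and 15.9 TPM against 15.5 and 13.6 TPM and overlapped as well.

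The promoters were searched for the letters of 3 elements of cell-cycle genes, in RefSeq sequences (GRCh38.p14) from 250 bases before to 50 bases after each start. Of the 38 genes, 33 had an entry, with 46 promoters. An E2F site, searched as TTTCCCGC, TTTCGCGC, TTTGCCGC or TTTGGCGC on both strands, was in 6 of 46 promoters (13.0%), against 3.31% of all 35116 promoters. Counted by gene, it was in 18.2% of the 33 genes, against 6.43% of the tested genes with an entry. Each window holds 30 bases, written 5′ to 3′ in the direction of the gene with the match in capitals, and shows a match near a RefSeq start.
FANCA: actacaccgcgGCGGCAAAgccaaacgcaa
FANCC: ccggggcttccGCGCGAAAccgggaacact
FANCC: ttcgtcggaatTTTCCCGCgacgccgcggg
FANCD2: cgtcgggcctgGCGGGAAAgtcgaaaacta
RMI1: ggcgcgagcgcGCGGCAAAtcgggcgggaa
EXO1: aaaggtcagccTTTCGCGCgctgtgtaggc
XRCC2: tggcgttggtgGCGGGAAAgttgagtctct
The windows lie at chr16:89816801-89816830 (minus strand), chr9:95317863-95317892 and chr9:95317737-95317766 (both minus), chr3:10026424-10026453 (plus), chr9:83980762-83980791 (plus), chr1:241848197-241848226 (plus) and chr7:152676102-152676131 (minus), in the order shown. The first bases of the matches were 172, 172, 46, 2 and 32 bases before the RefSeq start in the first 5 windows and 4 and 21 bases after it in EXO1 and XRCC2. RefSeq starts differ from the outermost ends of the genes in GENCODE, inside which all but the RMI1 window lie.

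The 6 genes with an E2F match did not stand apart in their differences. Their median log2 fold change was -0.13, the same as that of the 27 genes without one. FANCA (-0.43) was the 1 gene of the 6 with an unadjusted p of at most 0.05 in limma, against 9 of the 27. The CCAAT box, searched as CCAAT on both strands, was in 19 of 46 promoters (41.3%), against 34.6% of all promoters, or in 45.5% of the 33 genes against 43.0% of tested genes. The CHR element, searched as TTTGAA on both strands, was in 3 of 46 (6.52%), against 15.2%, or in 9.09% of the genes against 13.6%. A match describes the letters of the window and nothing more.

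**Figure D4:**
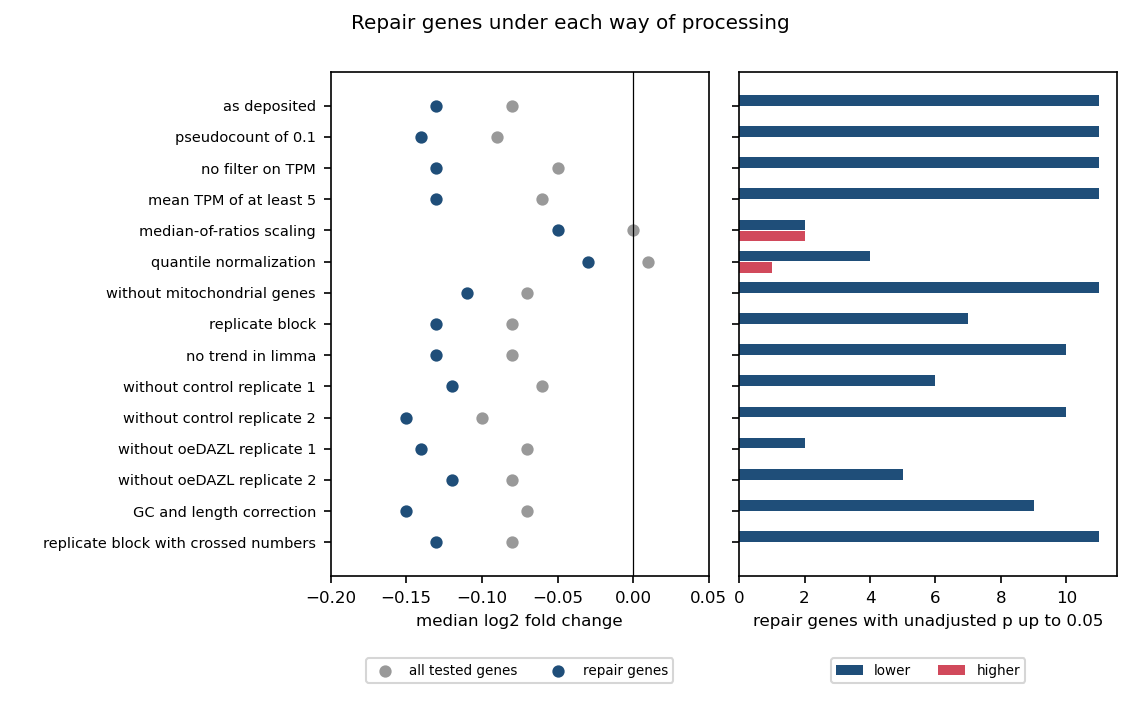
Left, median log2 fold change of the 38 repair genes (blue) and of all tested genes (grey) under each way of processing. Right, number of the repair genes with an unadjusted p of at most 0.05 in limma, lower in blue and higher in red. The blue median lies to the left of the grey one in every case, while the number of lower genes ranges from 11 to 2.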

How the data were processed

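RNA sequencing of 2 control and 2 oeDAZL libraries was analysed. The 6 miRNA libraries of the series were not analysed here. The authors deposited TPM per gene, with replicates not pooled. Their methods map reads to hg38 with HISAT2 and quantify unique hits with StringTie. Read counts were not used here. The submitters' processing notes give Trim Galore 0.6.4, cutadapt 1.18, HISAT2 2.1.0, Bowtie 1.0.0 and StringTie 2.1.4. The annotation release is not given in the sources used here. TPM keeps no read depth, so depth is unknown and no counting interval was computed.

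The table held 65003 entries, of which 45 pseudoautosomal copies and 18 repeats were left out, and 0 columns of other samples. Genes whose TPM averaged 1 or more were fitted as log2(TPM + 1), a scale that understates changes of low genes, with limma 3.58.1 in R 4.3.3 (eBayes with trend, no covariates). The fit was tested on simulated data. Coordinates, GC content and overlaps came from GENCODE 44 on hg38. H2AX was found under its older symbol. Named were all 38 genes, DAZL, marker genes and, of each other list, up to 4 genes of largest fold change at an unadjusted p of at most 0.05. Neighbouring genes were named after their values were seen. Members and lists were chosen with earlier results of these data known. Alternatives were another pseudocount, other filters, scalings, the replicate number as a block, no trend, and each library left out. A further result, for a single gene, is not reported here.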

Additional observations from a re-analysis of the deposited data

How the results depend on the processing

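No repair gene reached a 2-fold change at an unadjusted p of at most 0.05 under any of the 10 alternatives or with any library left out. The number lower at that p was 11 as deposited, 2 after median-of-ratios scaling, 4 after quantile normalization and between 2 and 10 with a library left out, beside 15.2%, 9.16%, 9.07% and between 7.35% and 19.7% of all tested genes; the number higher was 0, then 2 and 1. The replicate number shared by the groups is only a number: deviations of same-numbered libraries correlated at -0.104 over all tested genes (2 pairs), and with the replicate block 7 genes were lower. A block with crossed numbers, chosen after seeing the data like the GC and length correction, gave 11 lower and 1 with an adjusted p under 0.05. Adjusted p-values of FANCA over the alternatives ran from 0.0212 to 0.322. The median of the 38 genes was -0.05 (median-of-ratios), -0.03 (quantile), -0.15 (GC correction) and between -0.15 and -0.12 with a library left out. Under the same, the other recombination and Fanconi genes had -0.01 and 0.00403 (both scalings), and -0.13 to -0.06 left out. The S-phase list had 0.06, 0.02, -0.000835 (GC), -0.02 (TPM of at least 5), -0.01 (without mitochondrial genes) and -0.02 to 0.000421 left out. The G2/M list had 0.14 (median-of-ratios) and 0.03 to 0.11 left out. End joining had -0.02, -0.01, -0.14 (GC) and -0.14 to -0.07 left out. Mismatch repair had 0.07, 0.10, -0.02 (GC), 0.01 (without mitochondrial genes) and -0.02 to 0.02 left out. Some signs changed. After median-of-ratios scaling those of ATR (0.06), CHEK1 (0.01), NBN (0.02), PALB2 (0.07), RAD51D (0.000863), RAD54B (0.03), FANCB (0.01) and FANCE (0.08) did. After quantile normalization the same held for ATR (0.09), NBN (0.02), EXO1 (0.000748), PALB2 (0.07), RAD51D (0.03), RAD54B (0.04), FANCB (0.06), FANCE (0.10) and FANCF (0.00303). Without mitochondrial genes it held for ATR (0.000569), PALB2 (0.00219) and FANCE (0.02), and after GC correction MRE11 (-0.01), RAD51AP1 (-0.01), FANCE (0.04) and RMI1 (-0.06). With a library left out, the ranges that crossed 0 were those of ATR (-0.07 to 0.04), MRE11 (-0.10 to 0.15), NBN (-0.12 to 0.01), PALB2 (-0.05 to 0.02), RAD51D (-0.30 to 0.14), RAD54B (-0.12 to 0.03), FANCE (-0.09 to 0.09), FANCF (-0.20 to 0.01), FANCM (-0.08 to 0.26), FANCI (-0.44 to 0.06) and RMI1 (-0.08 to 0.13). The cause of these changes was not tested. A fit without a library leaves a group of 1, assumed to vary like the other group.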
